A study of Mus musculus with 113 samples.

Results

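Of the 24006 genes in the expression files, 6 are described here: the water channel genes *Aqp3*, *Aqp8*, *Aqp9* and *Aqp11*, and *Atp1b1* and *Atp1b3*, which encode beta subunits of the sodium pump. They were chosen by name for their place in the transport of fluid into the blastocyst cavity. Their expression was followed in 92 RNA-seq libraries of mouse embryos at the 2-cell (2C), 4-cell (4C) and 8-cell (8C) stages, to learn how it depends on stage, on knockdown (KD) of 4 nuclear receptor genes (*Nr5a2*, *Rarg*, *Nr1h3* and *Nr2c2*) and on base editing of *Nr5a2*. The values are FPKM (fragment values corrected for transcript length and library size), which are per length and so can be set side by side between genes.

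All embryos were wild type before injection, from superovulated females and, as the study's methods give for its embryos, from C57BL/6N females mated with PWK/PhJ males. In the 4KD experiment, siRNAs against all 4 receptors were injected at 5 µM per gene, with 20 µM control siRNA in the negative control (NC), and embryos were taken at 4C and 8C. In the 3KD experiment at 8C, siRNAs against 3 of the 4 receptors were injected at 5 µM per gene, so that each 3KD group spares 1 receptor, with 15 µM control siRNA in the NC. In the single KD experiment at 8C each receptor was targeted alone at 5 µM, with 5 µM control siRNA in the NC. A 2C experiment compared *Nr5a2* siRNA with control siRNA, both at 20 µM. These doses are those of the sample labels, and the study's methods instead describe a single NC dose for all siRNA groups. Each of these 16 groups had 2 libraries from pools of embryos. In the base editing experiment single embryos at 2C and 8C received base editor mRNA (BE, 8 per stage), an *Nr5a2* sgRNA (8 per stage) or both (14 per stage), at 100 ng/µL. siRNA leaves part of the mRNA in place, and base editing alters the sequence rather than the amount of the message. The share of edited alleles in each embryo was not analysed here. Whether replicate pools came from separate collections is not given in the sources used here, so the p-values measure only the spread between these libraries.

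The blastocoel forms when the outer cells of the embryo, the future trophectoderm, pump sodium with the Na,K-ATPase, and water follows through aquaporins while tight junctions seal the outside. The sodium pump is built from a catalytic alpha subunit and a beta subunit, a glycoprotein that the alpha subunit needs to mature and reach the membrane. Aquaporins differ in cargo: AQP3 and AQP9 are aquaglyceroporins that also pass glycerol, AQP8 passes water and other small molecules such as hydrogen peroxide, and AQP11 is an unorthodox member found mainly in membranes inside the cell. The stages sampled here all precede the cavity, and whole embryos were used, so fewer cells with a transcript and less of it per cell cannot be told apart.

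The sequences before the start sites of *Aqp3* and *Aqp11* are shown because these were the water channel genes marked at an unadjusted p under 0.05 in any comparison of treatments. Both are the 250 bases ahead of the start site in RefSeq (table on GRCm38.p6), 5′ to 3′ along the gene, placed on mm9 by a unique exact match. The window of *Aqp3* lies at chr4:41045217-41045466 and that of *Aqp11* at chr7:104886758-104887007, both on the minus strand. Capitals mark AGGTCA, the half-site of nuclear receptors, here read on the opposite strand as TGACCT.
Aqp3: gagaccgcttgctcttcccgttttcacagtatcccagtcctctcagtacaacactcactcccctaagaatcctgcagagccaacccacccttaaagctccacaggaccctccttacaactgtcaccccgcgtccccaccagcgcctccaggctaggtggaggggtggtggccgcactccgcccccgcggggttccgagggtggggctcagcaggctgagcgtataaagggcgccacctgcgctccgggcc
Aqp11: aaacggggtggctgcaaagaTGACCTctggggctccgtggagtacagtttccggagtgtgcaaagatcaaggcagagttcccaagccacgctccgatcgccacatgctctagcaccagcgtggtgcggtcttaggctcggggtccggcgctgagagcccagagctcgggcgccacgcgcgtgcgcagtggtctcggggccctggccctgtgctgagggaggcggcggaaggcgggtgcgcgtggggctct
All 6 genes matched the RefSeq table, with 8 promoter entries, since *Aqp9* and *Atp1b3* have 2 each. In windows of 300 bases that run on past the start site, the motif CAAGGTCA, to which NR5A2 binds as a monomer, was in 0 of the 8 entries on either strand, against 1.56% of 32851 RefSeq promoters of the same length. The looser CAAGGNCA was also in 0 of 8, against 6.71%. AGGTCA, which is contained in CAAGGTCA, was in 1 of 8, against 16.3%. Its only match was in *Aqp11*, from base -230 to -225 relative to the start site. These letter matches describe the windows only.

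By annotation on mm9 (GENCODE M1), *Aqp3* spans chr4:41039755-41045216, *Aqp9* chr9:70958466-71016489, *Aqp11* chr7:104874889-104886757, *Atp1b1* chr1:166367398-166388486 and *Atp1b3* chr9:96233099-96264766, all on the minus strand. *Aqp8* spans chr7:130605808-130611517 on the plus strand. The span of *Atp1b3* is overlapped on the other strand by *Gm17562*, and in libraries without strand, reads from any exon stretch that both share cannot be told apart. Whether their exons overlap was not checked.

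Several facts of the libraries bear on the values. Relative sequencing depth, read from the step between low FPKM values, ranged from 0.369 to 1.52 around the median of the 92 libraries. In 8C libraries with *Nr5a2* siRNA *Nr5a2* lay between 3.90 and 12.8 FPKM, against 27.1 to 50.2 FPKM in the NC libraries. At 4C, 1 of the 2 4KD libraries still had 17.6 FPKM of *Nr5a2* (26.8 to 31.7 FPKM in NC). The 3KD NC libraries had 2.18 and 17.6 FPKM of *Rarg*, and each 3KD group with *Rarg* siRNA had values above the lower of these. They were 2.61 and 3.60 FPKM without *Nr5a2* siRNA, 1.61 and 2.55 without *Nr1h3* and 2.33 and 2.40 without *Nr2c2*. Markers of later trophectoderm were low at 8C, with a median of 0.387 FPKM for *Cdx2* and *Elf5* at 0 in 48 of 54 libraries, whereas *Tead4* (median 55.6 FPKM) and *Tfap2c* (median 43.1 FPKM), present in early blastomeres, were above 0 in every 8C library. Of 10 markers of cumulus and granulosa cells, only *Amhr2* reached a mean of 1 FPKM in any 8C group (median 13.4 FPKM), and *Ptx3* was at 0 in all 54. At 2C, by contrast, 2 to 4 of the 10 reached that mean, depending on the group. *Cyp11a1* (median 0) rose to 27.2 FPKM and *Star* (median 0.532) to 18.7 in single 2C libraries. The part of such cells in the 2C values was not tested. Of the value columns, 3 carry a 4-cell name although the sample labels say 2C (sgRNA replicate 8) or 8C (BE + sgRNA replicates 13 and 14). The summed oocyte-deposited markers were 59.8 FPKM in the first of these, whereas the other 2C libraries had at least 332.6 FPKM, and were 160.2 and 325.8 FPKM in the latter pair, above the group median of 87.4. Changes in the single embryos named below with a p are also given without them.

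The 6 genes differed widely in level. *Atp1b3* was the highest, with a median of 118.0 FPKM over the 34 libraries at 2C, 226.2 over the 4 at 4C and 107.6 over the 54 at 8C. *Aqp9* and *Aqp11* followed at 2C and 4C, with medians at 2C, 4C and 8C of 47.2, 82.2 and 50.1 FPKM for *Aqp9* and 47.0, 72.0 and 18.3 FPKM for *Aqp11*. *Aqp3* was lowest at 2C and *Atp1b1* highest there: *Aqp3* had medians of 2.77, 11.1 and 26.8 FPKM, the last above that of *Aqp11*, and *Atp1b1* of 13.8, 3.56 and 4.09 FPKM. *Aqp8* was near 0 throughout, being above 0 in 9 of 34 libraries at 2C (highest 2.02 FPKM), 0 of 4 at 4C and 3 of 54 at 8C (highest 0.635 FPKM). It passed the filter of a mean of 1 FPKM in no fit, so the tests below cover 5 of the 6 genes. Ranked by mean over the 22 groups, each gene's neighbouring groups overlapped throughout. The top and bottom groups were 8C *Nr1h3* KD (90.9 FPKM) and 2C NC (1.43) for *Aqp3*, 4C 4KD (101.9) and 8C sgRNA (30.2) for *Aqp9*, and 4C 4KD (107.1) and 8C sgRNA (6.19) for *Aqp11*. For the pump genes they were 2C BE (20.9) and 8C *Nr1h3* KD (1.59) for *Atp1b1*, and 8C 3KD without *Nr1h3* siRNA (298.9) and 8C sgRNA (55.2) for *Atp1b3*.

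**Figure D1:**
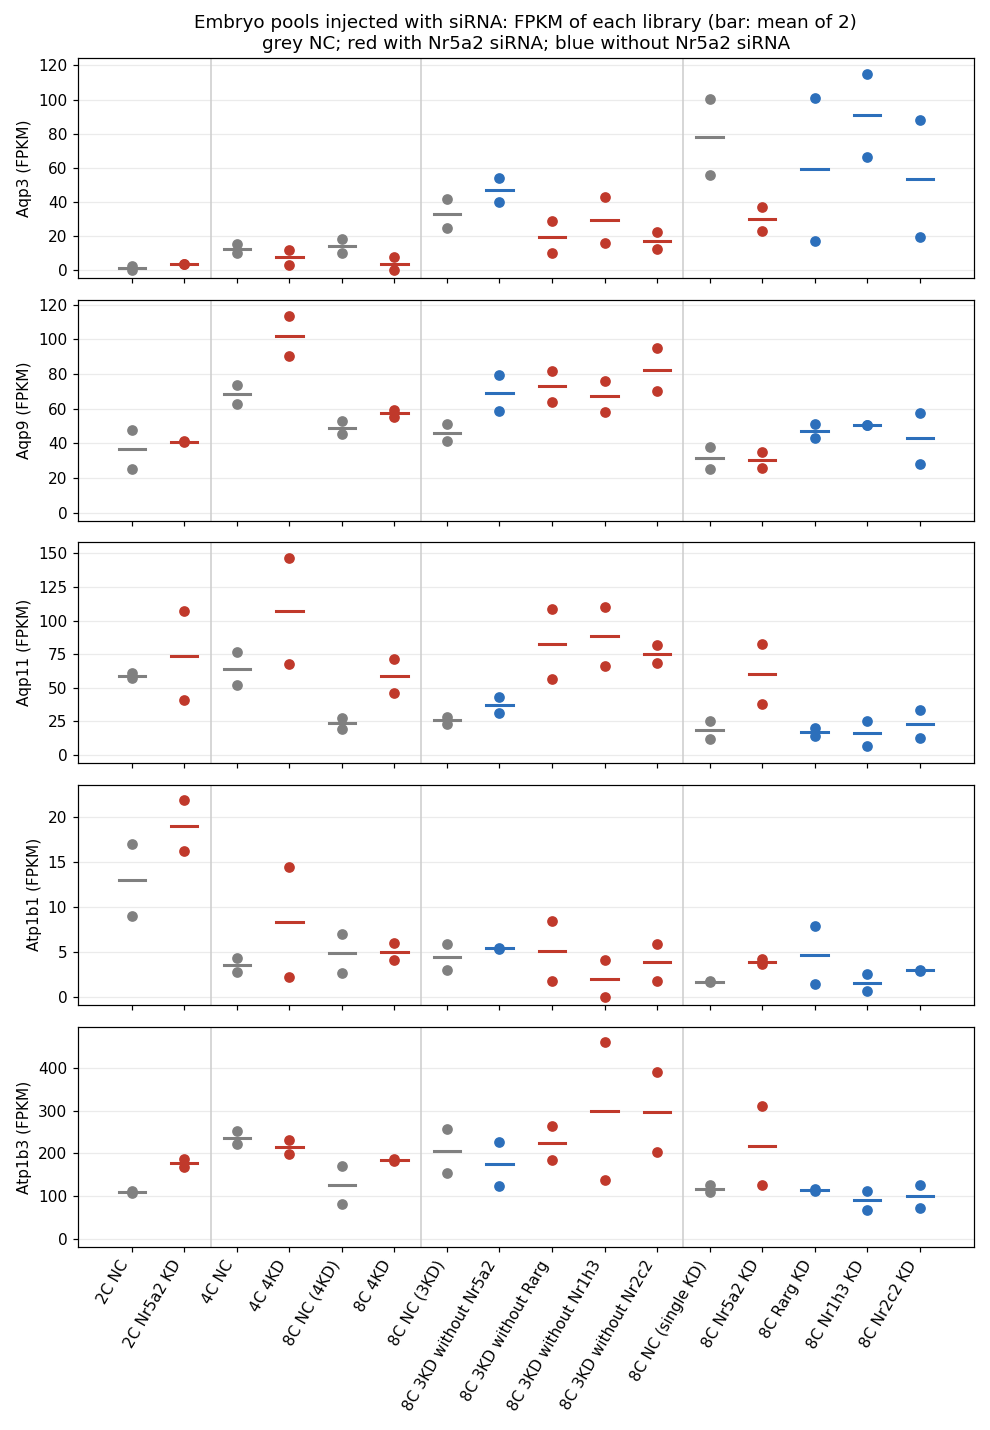
FPKM of 5 of the genes (rows, linear axes) in each library of the 16 siRNA groups; points are the 2 libraries of a group, bars their mean, grey NC, red groups with *Nr5a2* siRNA and blue groups without it. *Aqp11* in red 8C groups lies between 38.1 and 110.4, above every NC library of its own experiment, and vertical lines separate the experiments.

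The first comparison asks what happens to the fluid transport genes when all 4 receptors are knocked down. At 8C, *Aqp3* lay lower and *Aqp11* higher in 4KD than in NC embryos, without passing the adjusted test, and *Aqp9* and *Atp1b3* lay slightly higher. In NC embryos *Aqp3* had 10.4 and 18.3 FPKM, and in 4KD embryos 0.497 and 7.62. Both 4KD libraries were below both NC libraries, although the 4KD pair differed widely from each other. The change of *Aqp3* was -2.04 on the log2(FPKM + 1) scale (SE 0.84, adjusted p = 0.605), -0.78 without 4KD replicate 1 and -3.31 without replicate 2. *Aqp11* had 27.4 and 19.6 FPKM in NC and 71.4 and 46.0 in 4KD embryos, again without overlap, a change of 1.27 (SE 0.48, adjusted p = 0.543).

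*Aqp9* was at 45.2 and 53.0 FPKM in 8C NC and 55.1 and 59.4 in 8C 4KD embryos. *Atp1b3* was at 170.3 and 82.5 FPKM in NC and 181.3 and 186.9 in 4KD embryos. The latter pair was tight and above both NC libraries, which were far apart. *Atp1b1* overlapped, with 2.69 and 7.07 FPKM in NC and 4.08 and 6.00 in 4KD embryos. Thus the groups did not overlap for 3 genes that were higher and 1 that was lower, where 18.1% and 19.2% of all 10476 genes tested did so in the same directions. limma called 0 of the 5 genes at an adjusted p under 0.05, as it called 0% of all genes. At an unadjusted p under 0.05 it marked 2 of the 5 (*Aqp3* and *Aqp11*), against 7.48% of all genes. The other 3 had changes of 0.13 to 0.63. With 2 libraries against 2, an exact permutation test of a single gene cannot go below p = 0.333.

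At 4C the same siRNAs gave smaller changes than at 8C for *Aqp3*, *Aqp11* and *Atp1b3*, and larger ones for *Aqp9* and *Atp1b1*. *Aqp9* had 73.9 and 62.6 FPKM in NC and 113.4 and 90.4 in 4KD embryos, and was the only gene of the 5 whose groups did not overlap (14.7% of all genes tested were higher and 15.3% lower without overlap). *Aqp11* had 51.9 and 76.2 FPKM in NC and 67.7 and 146.4 in 4KD embryos. *Aqp3* had 15.3 and 10.3 FPKM in NC and 11.9 and 3.43 in 4KD embryos. The single high 4KD library for *Aqp11* and the single low one for *Aqp3* were the same one, replicate 2. *Atp1b1* had 4.31 and 2.81 FPKM in NC against 14.5 and 2.22, and *Atp1b3* 221.3 and 251.3 against 199.0 and 231.0. limma called 0 of the 5, also 0 at an unadjusted p under 0.05, against 0% and 5.82% of all genes, and the changes ran from -0.84 to 0.65. The difference between the effects at 8C and at 4C passed for 0 of the 5, and was at an unadjusted p under 0.05 for 0 of the 5, against 0% and 2.47% of all genes.

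Between the NC groups of this experiment, *Aqp9*, *Aqp11* and *Atp1b3* were all lower at 8C than at 4C without overlap, 3 of the 5 genes, where 19.1% of all genes were lower and 16.2% higher in this way. *Aqp11* gave a change of -1.40 (SE 0.48, adjusted p = 0.557) and *Atp1b3* of -0.99 (SE 0.39, adjusted p = 0.653). The latter was -0.47 without replicate 2 of the 8C NC and -1.50 without replicate 1. limma called 0 of the 5 and 0% of all genes, with 2 of the 5 and 7.41% of all genes at an unadjusted p under 0.05.

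Which of the 4 receptors these differences go with was addressed by sparing 1 receptor at a time. *Aqp11* lay above its NC in all 4 kinds of 3KD embryos, and was highest in the 3 kinds that received *Nr5a2* siRNA. NC embryos had 28.3 and 23.3 FPKM of *Aqp11*, and embryos spared the *Nr5a2* siRNA had 31.5 and 43.0. Embryos spared *Rarg* siRNA had 56.8 and 108.7 FPKM, those spared *Nr1h3* siRNA 110.4 and 66.2, and those spared *Nr2c2* siRNA 68.1 and 81.7. The 6 libraries with *Nr5a2* siRNA were all above the 2 without it, and these in turn above both NC libraries.

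Against the shared NC, the changes of *Aqp11* were 1.58 without *Rarg* siRNA (SE 0.46, adjusted p = 0.406), 1.70 without *Nr1h3* siRNA (SE 0.46, adjusted p = 0.344) and 1.50 without *Nr2c2* siRNA (SE 0.46, adjusted p = 0.378). The median change over all genes in these comparisons was itself 0.12, 0.11 and 0.11, and relative to it *Aqp11* stood at 1.46, 1.58 and 1.40. Embryos spared *Nr5a2* siRNA had a change of -1.09 against the other 3KD embryos (SE 0.37, adjusted p = 0.315). None of these passed the adjusted test. These values are from the fit without a replicate block. Over the alternative settings, a block among them, the adjusted p (limma) ran from 0.111 to 0.724 without *Rarg* siRNA and from 0.0850 to 0.861 without *Nr1h3*. It ran from 0.109 to 0.709 without *Nr2c2* siRNA and from 0.0990 to 0.918 in the last comparison.

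*Aqp3* showed the opposite arrangement with wider overlap. Its values were 41.6 and 24.6 FPKM in NC and 53.9 and 40.1 in embryos spared *Nr5a2* siRNA. Embryos spared *Rarg*, *Nr1h3* or *Nr2c2* siRNA had 28.9 and 10.3, 43.0 and 16.0, and 12.5 and 22.5 FPKM. Only the last pair lay wholly below NC. Embryos spared *Nr5a2* siRNA were higher than the other 3KD embryos by 1.19 (SE 0.50, adjusted p = 0.454), although 1 library of the others, at 43.0, exceeded their lower value of 40.1. Over the alternative settings the adjusted p (limma) of this change ran from 0.148 to 0.918.

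*Aqp9* did not separate the embryos by *Nr5a2* siRNA. It had 41.2 and 51.2 FPKM in NC and 79.2 and 58.7 in embryos spared *Nr5a2* siRNA. Those spared *Rarg*, *Nr1h3* or *Nr2c2* siRNA had 63.8 and 81.9, 76.1 and 57.8, and 70.0 and 94.9 FPKM. All 8 3KD libraries were above both NC libraries. The pump genes spread within groups: *Atp1b3* ran from 155.5 to 257.8 FPKM in NC and from 123.8 to 458.9 over the 3KD libraries, and *Atp1b1* from 2.99 to 5.86 FPKM in NC and from 0 to 8.47 over the 3KD libraries, overlapping NC in every case.

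Over the 5 genes tested, 2 were higher without overlap (*Aqp9* and *Aqp11*) in each of the 4 comparisons with NC, where 16.2% (without *Nr5a2* siRNA), 18.9% (without *Rarg*), 18.7% (without *Nr1h3*) and 20.2% (without *Nr2c2*) of all 10626 genes were. One was lower without overlap (*Aqp3*, without *Nr2c2* siRNA), where 12.3% of all genes were, and 0 in the comparisons without *Nr5a2*, *Rarg* and *Nr1h3* siRNA (7.13%, 12.5% and 12.2%). limma called 0 of the 5 in each, against 0%, 0.0565%, 0.00941% and 0% of all genes in the same order. An unadjusted p under 0.05 was reached by 0, 1, 1 and 1 of the 5, against 2.36%, 6.25%, 6.95% and 7.37% of all genes. Between embryos spared *Nr5a2* siRNA and the other 3KD embryos, 0 of the 5 passed against 0.282% of all genes, 2 were at an unadjusted p under 0.05 against 10.1%, and 1 (*Aqp11*) was lower without overlap against 5.81% (8.59% of all genes were higher). With the replicate number as a block, the calls over all genes went from 6 to 45 without *Rarg* siRNA, from 1 to 35 without *Nr1h3*, from 0 to 65 without *Nr2c2* and from 30 to 262 in the last comparison, and 0 of the 5 genes passed in any of them.

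Single knockdowns asked about each receptor on its own. *Aqp11* lay above NC in *Nr5a2* KD embryos, but not in embryos with the other single KDs, and *Aqp3* lay below it. *Aqp11* had 24.9 and 11.6 FPKM in NC and 82.7 and 38.1 in *Nr5a2* KD embryos. In *Rarg*, *Nr1h3* and *Nr2c2* KD embryos it had 14.3 and 19.8, 25.5 and 6.37, and 33.6 and 12.6 FPKM. The 2 *Nr5a2* KD libraries were thus the highest of the 10 in this experiment.

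Against NC the change of *Aqp11* was 1.66 (SE 0.67, adjusted p = 0.214), and 1.88 relative to the median of all genes, which was -0.22. Against the other 3 single KDs it was 1.70 (SE 0.54, adjusted p = 0.109), and 1.83 relative to the median of -0.13. With the replicate number as a block the adjusted p of this last change was 0.0457, but the numbers did not pair these libraries. Leaving out each library in turn kept it between 1.15 and 2.25 with adjusted p from 0.095 to 0.437.

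*Aqp3* had 55.9 and 100.4 FPKM in NC and 36.9 and 23.1 in *Nr5a2* KD embryos, without overlap. In the other single KDs it ran from 17.4 to 115.1 FPKM. Both *Rarg* KD (17.4 and 101.1) and *Nr2c2* KD (19.4 and 88.1) had 1 library below and 1 near the NC values, so that these pools disagreed with each other. In replicate 2 of *Rarg* KD and replicate 1 of *Nr2c2* KD the summed 2-cell burst markers were 67.4 and 69.3 FPKM, against 3.50 and 3.32 in their partners. Their part in the spread was not tested.

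*Aqp9* was at 25.1 and 37.7 FPKM in NC and 25.7 and 34.9 in *Nr5a2* KD embryos, a full overlap, and at 43.2 and 51.2 in *Rarg* KD, 50.8 and 50.8 in *Nr1h3* KD and 57.3 and 28.3 in *Nr2c2* KD embryos. *Atp1b3* had 126.5 and 109.6 FPKM in NC and 311.0 and 125.5 in *Nr5a2* KD embryos, so 1 of the 2 libraries stood far above the rest. Against the other single KDs, which ran from 69.2 to 127.3 FPKM, its change was 0.98 (SE 0.37, adjusted p = 0.180), and 1.11 relative to the median of all genes. It was 0.33 without replicate 1 of *Nr5a2* KD, the lowest of 8 such values, and 1.64 without replicate 2, the highest. *Atp1b1* was low in this experiment, with 1.82 and 1.62 FPKM in NC, 4.19 and 3.64 in *Nr5a2* KD and 3.04 and 2.89 in *Nr2c2* KD embryos. Both of these KD pairs lay above NC, whereas *Rarg* KD (1.50 and 7.86) and *Nr1h3* KD (2.56 and 0.629) overlapped it.

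In *Nr5a2* KD embryos, 2 of the 5 genes were higher than NC without overlap (*Aqp11* and *Atp1b1*) and 1 lower (*Aqp3*), where 12.9% and 33.1% of all 10163 genes were. limma called 0 of the 5 against 2.75% of all genes, and marked 1 at an unadjusted p under 0.05 against 18.1%. Against the other single KDs it called 0 of the 5 against 3.95% of all genes, with 2 at an unadjusted p under 0.05 against 19.5% and 1 higher without overlap against 5.67% (13.7% of all genes were lower). In *Rarg*, *Nr1h3* and *Nr2c2* KD embryos limma called 0 of the 5 in each, against 0.00984%, 0.00984% and 0.0787% of all genes, and 0 were at an unadjusted p under 0.05, against 3.76%, 2.92% and 4.19%. In each of these, 1 of the 5 was higher without overlap (*Aqp9* in *Rarg* KD and *Nr1h3* KD, *Atp1b1* in *Nr2c2* KD), against 11.6%, 18.0% and 6.38% of all genes, and 0 were lower, against 19.6%, 18.9% and 33.9%. The changes in these 3 comparisons ran from -0.83 to 0.79, where the median over all genes was -0.24 in *Nr2c2* KD embryos.

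Set side by side over the 3 experiments at 8C, *Aqp11* in 10 of 10 libraries with *Nr5a2* siRNA was above every NC library of its own experiment, and so were 4 of the 8 libraries with other siRNAs only, while 1 of the 8 was below. *Aqp3* was below every NC library of its own experiment in 8 of 10 libraries with *Nr5a2* siRNA and in 2 of 8 without it. It was above them in 1 of 10 and 3 of 8. *Aqp9* made no such distinction, being above NC in 8 of 10 and 7 of 8. *Atp1b3* was above NC in 6 of 10 and below in 1, against 1 and 3 of 8. *Atp1b1* was above in 4 and below in 3 of 10, against 4 and 2 of 8. In each comparison behind the 10 libraries, 12.9% to 20.2% of all genes were higher than NC without overlap and 12.2% to 33.1% lower. The share of all genes that did so in every one of them was not computed. The libraries of an experiment share their NC, so these counts are a description. Sums of markers of other states, the 4 lists given here, also differed with *Nr5a2* siRNA in some of the experiments. For 8 early blastomere and trophectoderm markers the sum was 87.9 to 123.2 FPKM in *Nr5a2* KD against 133.2 to 160.1 in NC. It overlapped in 8C 4KD embryos (93.2 to 133.3 against 93.9 to 183.4). In 3KD embryos with *Nr5a2* siRNA it also overlapped (60.5 to 191.1 against 74.3 to 113.8). The summed FPKM of 8 oocyte-deposited markers was 98.8 to 190.8 in 3KD embryos with *Nr5a2* siRNA, against 44.9 to 52.8 in NC and 28.9 to 62.3 in embryos spared it. In single KD embryos it was 86.8 to 135.9 with *Nr5a2* siRNA against 36.2 to 46.6 in NC, and in 8C 4KD embryos 48.3 to 81.7 against 45.7 to 69.0, an overlap. Most of it was *Zp3*, a zona pellucida glycoprotein gene, with a mean of 106.7 FPKM in *Nr5a2* KD and 30.2 FPKM in NC embryos. Of the other 7 markers, only *Zp2* had a higher mean in *Nr5a2* KD than in NC embryos (1.38 against 0.518 FPKM), and *Oosp1*, for example, had a lower one (0.405 against 4.15 FPKM). The summed FPKM of 4 inner cell mass markers was lower, at 58.7 to 71.1 in *Nr5a2* KD against 209.1 to 254.4 in NC and at 69.2 to 105.0 in 8C 4KD against 154.8 to 196.6, and it overlapped in 3KD embryos (43.7 to 143.7 with *Nr5a2* siRNA against 64.2 to 105.3 in NC). That of 4 2-cell burst markers was higher, at 6.80 to 7.11 in *Nr5a2* KD against 2.03 to 2.24 in NC. In 8C 4KD embryos it was 20.9 to 24.5 against 4.74 to 7.15, and in 3KD embryos it overlapped (5.02 to 22.8 against 5.06 to 13.4). Over the 54 libraries at 8C, *Zscan4c* and *Zscan4d* had medians of 0.0788 and 0.127 FPKM, against 4.50 for *Tdpoz4* and 1.20 for *Zfp352*. Of the inner cell mass markers, *Pou5f1* had a median of 136.9 FPKM there, against 33.3 for *Gata6*, 8.77 for *Nanog* and 0 for *Sox2*. The part of these markers in the result was not tested.

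**Figure D2:**
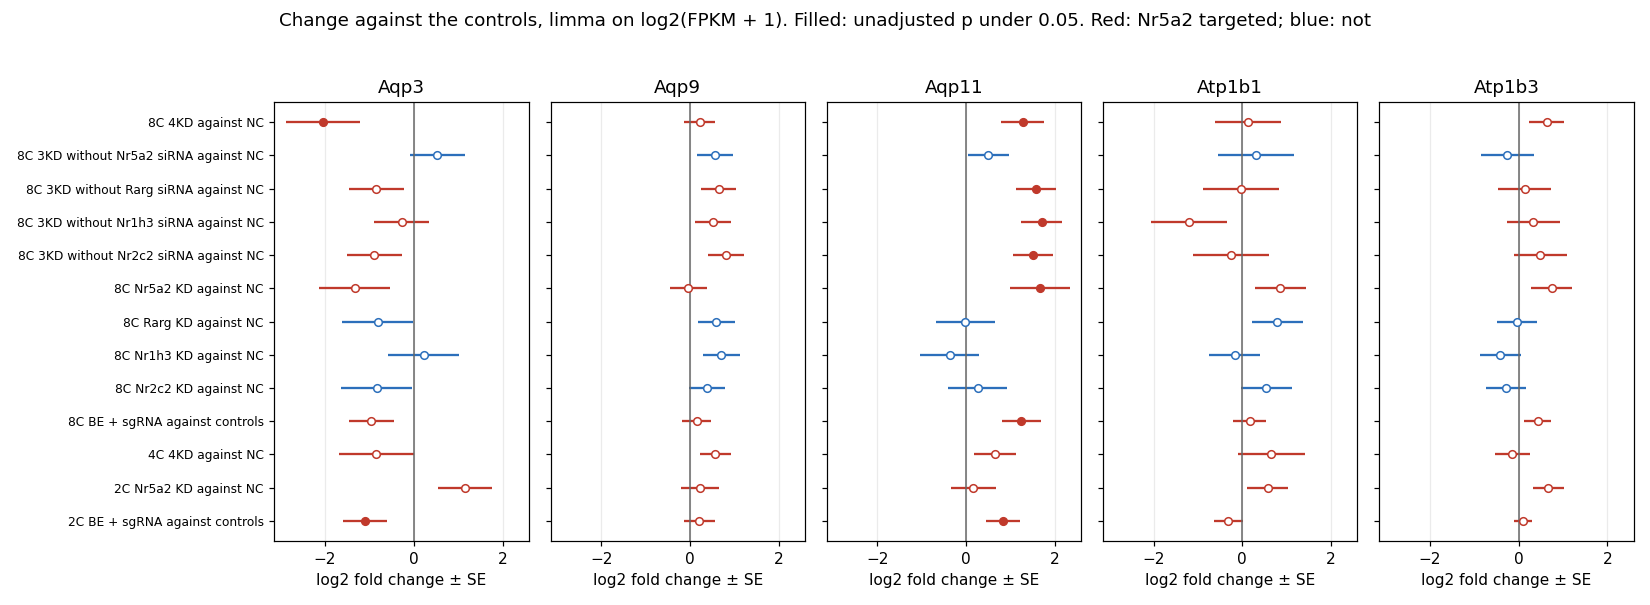
Change of 5 of the genes (panels) in 13 comparisons, as log2 fold change on the log2(FPKM + 1) scale with its SE from limma (horizontal bars); red, *Nr5a2* targeted; blue, not; filled, unadjusted p under 0.05. *Aqp11* is filled and positive in the 5 siRNA comparisons at 8C that involve *Nr5a2* (1.27 to 1.70) and in both base editing comparisons; 0 of the points passed the adjusted test.

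At 2C, *Nr5a2* siRNA was compared with NC to see the embryos at an earlier stage. *Aqp3*, which was near its lowest level, had 2.59 and 0.281 FPKM in NC and 3.59 and 3.97 in *Nr5a2* KD embryos, so that it lay higher, not lower, at this stage. *Atp1b3* had 108.6 and 113.5 FPKM in NC and 167.9 and 187.7 in *Nr5a2* KD embryos. Both pairs were tight and did not overlap. *Aqp11* had 57.0 and 61.1 FPKM in NC and 107.1 and 40.6 in KD embryos, on either side of NC. *Aqp9* had 47.8 and 25.3 against 41.2 and 40.9 FPKM, and *Atp1b1* 8.98 and 17.0 against 21.9 and 16.2 FPKM. Without overlap, 2 of the 5 were higher and 0 lower, where 27.3% and 8.28% of all 11958 genes were. limma called 0 of the 5 and marked 0 at an unadjusted p under 0.05, against 0.0167% and 4.67% of all genes. The changes ran from 0.16 to 1.16, with a median over all genes of 0.23.

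Base editing of *Nr5a2* was a second means of perturbing the receptor, here in single embryos. At 8C, *Aqp11* lay higher in embryos with BE + sgRNA than in those with BE or sgRNA alone. The lowest, median and highest values were 1.04, 10.2 and 23.0 FPKM with BE, 0.264, 4.05 and 20.2 with sgRNA, and 2.16, 15.6 and 95.4 with both. Of the 14 embryos with both, 12 were above the median of the 16 controls (6.09 FPKM) and 3 above all controls. The ranges overlapped. The change was 1.24 (SE 0.44, adjusted p = 0.286), and did not pass.

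The 2 embryos whose columns have a 4-cell name held the highest *Aqp11* values, 58.5 and 95.4 FPKM. Without these 2 the change was 0.87 (limma, adjusted p = 0.649), and 10 of 12 embryos were above the control median with 1 above all controls. The single embryos fall into 2 runs of library numbers in the column names, eBE and BE4. Whether these names mark different editors or only batches is not given in the sources used here. Among eBE libraries all 6 edited embryos were above the control median of 9.23 FPKM, with a change of 0.76 (adjusted p = 0.290), and among BE4 libraries 5 of 6 were above that of 3.48 FPKM, with a change of 0.99 (adjusted p = 0.999). The 4 sgRNA embryos of the BE4 run had FPKM sums of 207918 to 268257, below those of the other 4 (428014 to 466564), and leaving out the former, the libraries with 4-cell names and the lowest library of each stage together gave 0.55 (adjusted p = 0.408). The summed oocyte-deposited markers had a median of 87.4 FPKM in edited embryos and 33.9 and 30.8 in BE and sgRNA embryos. The inner cell mass markers had 194.8 FPKM against 255.9 and 227.0, and the 2-cell burst markers 10.2 against 2.74 and 1.86. Early blastomere and trophectoderm markers had 176.2 FPKM against 159.1 and 124.5. The part of these markers in the result was not tested.

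The other genes overlapped widely at 8C. *Aqp3* had a lowest, median and highest value of 3.86, 45.3 and 89.4 FPKM with BE, 7.18, 62.4 and 183 with sgRNA and 2.58, 18.2 and 109.4 with both. *Aqp9* had 23.1, 61.9 and 139.9 FPKM with BE, 5.37, 27.8 and 58.0 with sgRNA and 8.53, 41.3 and 136.9 with both. The medians of the 2 control groups of *Aqp9* thus lay on either side of that of the edited embryos. *Atp1b1* had 2.68, 5.59 and 16.4 FPKM with BE, 0.458, 3.77 and 7.51 with sgRNA and 0, 4.69 and 24.5 with both. *Atp1b3* had 51.0, 81.9 and 106.6 FPKM with BE, 17.1, 53.2 and 103.8 with sgRNA and 16.2, 91.4 and 208.3 with both. The lowest edited values of *Aqp9*, *Aqp11*, *Atp1b1* and *Atp1b3* were all those of BE + sgRNA replicate 8. That library had the lowest FPKM sum at 8C (83392) and 5472 genes at 1 FPKM or more. The lowest edited value of *Aqp3* was in replicate 14, whose column has a 4-cell name. Of the edited embryos, 6 of 14 had more *Atp1b3* than any control, and 4 of 12 without the libraries with 4-cell names. limma called 0 of the 5 at 8C and marked 1, *Aqp11*, at an unadjusted p under 0.05, against 0.164% and 10.8% of all 9760 genes. No gene of the 5, and 0% of all genes, had groups without overlap. The changes of the other 4 ran from -0.95 to 0.43.

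At 2C the edited embryos had lower *Aqp3* and higher *Aqp11* than the controls, again short of the adjusted test. For *Aqp3* the lowest, median and highest values were 0, 4.25 and 33.9 FPKM with BE, 0.698, 10.1 and 21.4 with sgRNA and 0, 1.40 and 14.4 with both. Only 2 of 14 edited embryos were above the control median of 7.17 FPKM. The change was -1.10 (SE 0.49, adjusted p = 0.397), and it was -0.79 among eBE and -1.57 among BE4 libraries, where BE embryos alone are the control. For *Aqp11* the values were 18.3, 41.2 and 62.1 FPKM with BE, 2.60, 28.7 and 88.6 with sgRNA and 10.96, 57.9 and 127.3 with both, and 11 of 14 edited embryos were above the control median of 40.4 FPKM. The change of 0.84 (SE 0.38, adjusted p = 0.402) was 0.34 against BE alone and 1.34 against sgRNA alone, 1.01 among eBE and 0.38 among BE4 libraries. Without the libraries that have a 4-cell column name, 2 of 14 edited embryos were above the control median of 8.06 FPKM for *Aqp3*, with a change of -1.24 (adjusted p = 0.278), and 10 of 14 above that of 42.3 FPKM for *Aqp11*, with a change of 0.76 (adjusted p = 0.391).

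*Aqp9*, *Atp1b1* and *Atp1b3* at 2C had changes between -0.32 and 0.21 in edited embryos. limma called 0 of the 5 at 2C and marked 2 at an unadjusted p under 0.05, against 0.00805% and 11.6% of all 12420 genes, and groups without overlap were found for 0 of the 5 and 0% of all genes. The effect at 8C differed from that at 2C for 0 of the 5, with 0 at an unadjusted p under 0.05, against 0.0385% and 9.68% of all genes.

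**Figure D3:**
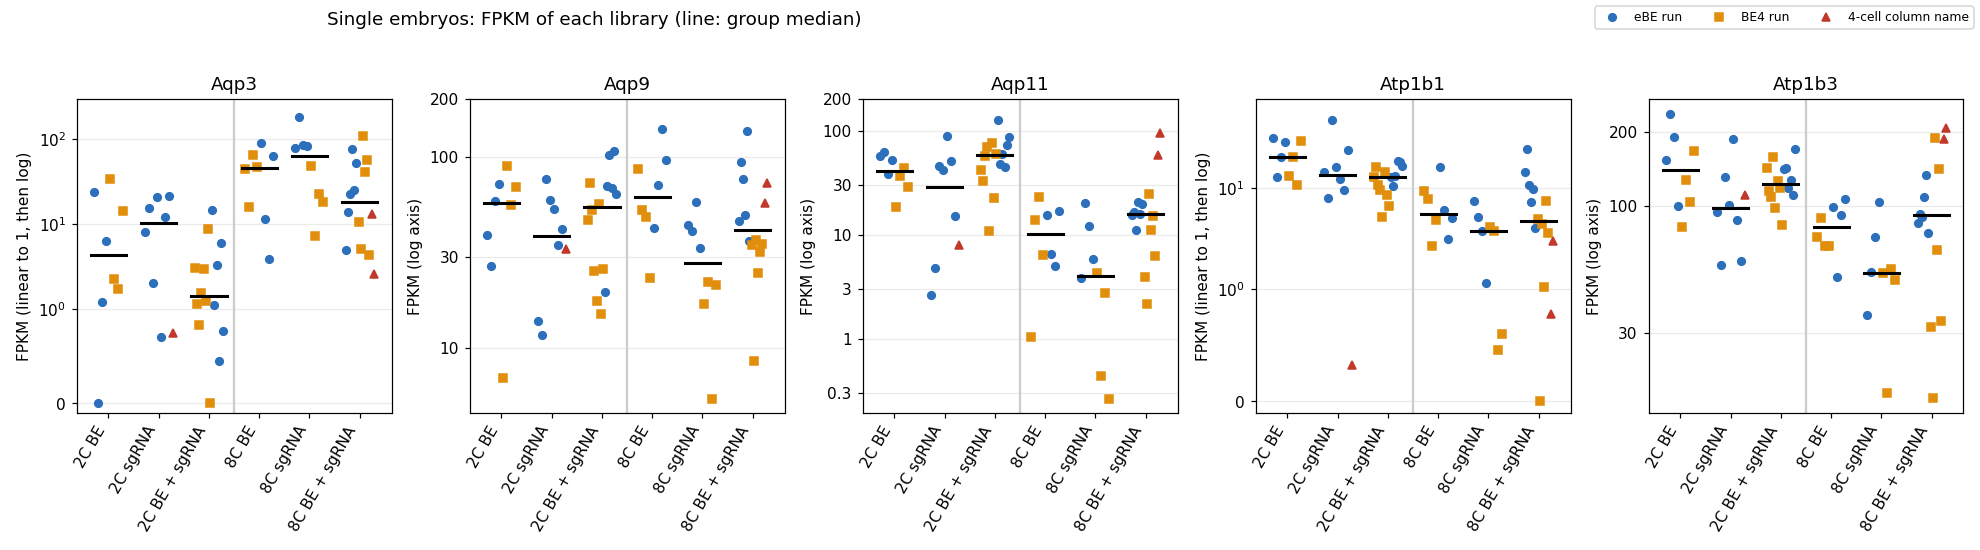
FPKM of 5 of the genes (panels) in each of the 60 single embryos, by stage and injection; log axes, linear below 1 FPKM for *Aqp3* and *Atp1b1*; lines are group medians, circles and squares the 2 runs of library numbers and triangles the 3 libraries with a 4-cell column name. For *Aqp11* at 8C the BE + sgRNA median is 15.6 against 10.2 and 4.05 in the controls, and 2 of the triangles are its highest values.

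The control embryos of the base editing experiment also give the change from 2C to 8C. *Aqp3* rose, *Aqp11* and both pump genes fell, and *Aqp9* did not pass. *Aqp3* went from a median of 7.17 FPKM in 16 controls at 2C to 46.9 at 8C, a change of 2.49 (SE 0.50, adjusted p = 1.4e-05). *Aqp11* went from 40.4 to 6.09 FPKM, a change of -2.06 (SE 0.40, adjusted p = 1.0e-05). *Atp1b1* went from 15.3 to 4.51 FPKM, a change of -1.65 (SE 0.34, adjusted p = 2.2e-05), and *Atp1b3* from 106.9 to 68.3 FPKM, a change of -0.87 (SE 0.25, adjusted p = 0.0017). *Aqp9* went from 47.7 to 43.1 FPKM, a change of 0.04. The ranges of the 2 stages overlapped for all 5, where 0.87% of all genes were higher and 2.39% lower without overlap.

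These 4 of 5 are to be read against a background of 72.5% of all 12991 genes called between the stages (28.9% higher and 43.6% lower, and 74.3% at an unadjusted p under 0.05), with a median change of -0.31. Relative to that median the changes were 2.80 for *Aqp3*, -1.76 for *Aqp11*, -1.35 for *Atp1b1* and -0.56 for *Atp1b3*. Under median-ratio scaling the median over all genes was -0.49, and with FPKM rescaled to a common sum it was -0.69. Of the genes called, 39.8% were higher at 8C as deposited, 33.1% under median-ratio scaling and 23.6% with a common sum, and the directions of the 4 genes were the same in all 3. Among BE4 libraries alone the change of *Atp1b3* was -0.63 (adjusted p = 0.183), so that its call is lost there. Without the libraries that stand apart all 4 calls held, with changes of 2.99 for *Aqp3*, -1.81 for *Aqp11*, -1.76 for *Atp1b1* and -0.76 for *Atp1b3*.

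The wider pathway was followed with 45 listed genes for other aquaporins, other subunits and FXYD regulators of the sodium pump, and transporters of sodium, protons, chloride, calcium and glucose, of which 44 were in the files. In the comparisons of treatments within a stage between 9 and 15 of them passed the filter of a mean of 1 FPKM, and limma called 0 in all but 1 comparison, with 0 to 2 at an unadjusted p under 0.05. The exception was *Clcn2*, a chloride channel gene, in *Nr5a2* KD against the other single KD embryos: 1 of 9 genes tested, with a mean of 0.594 FPKM in *Nr5a2* KD against 3.88, a change of -1.56 (SE 0.33, adjusted p = 0.0264). There, 3.95% of all genes were called. Between 2C and 8C control embryos, 4 of the 16 tested rose and 10 fell, where 28.9% of all genes were called higher and 43.6% lower. Among those with large changes were *Fxyd4*, a regulator of the pump, from 0.593 to 24.0 FPKM (3.71), *Slc9a3r1*, a scaffold protein for sodium proton exchangers, from 35.2 to 1.68 FPKM (-3.55), and *Atp1b2*, another beta subunit gene, from 12.3 to 0.431 FPKM (-2.95). *Slc12a2*, a sodium, potassium and chloride cotransporter, went from 13.4 to 48.4 FPKM (2.06).

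Across the 22 groups, the genes most like each member were found by the Pearson correlation of mean log2(FPKM + 1) among 9175 genes. They were *Nptn* (0.950), *Prr23a* (0.944) and *Mat2b* (0.928) for *Aqp11*, *Steap3* (0.903), *Scarb2* (0.894) and *Mkrn1* (0.893) for *Aqp3*, and *Sec23b* (0.854), *Cdc40* (0.834) and *Eif2ak1* (0.832) for *Aqp9*. For *Atp1b1* they were *Nrn1l* (0.914), *Arrdc3* (0.913) and *Capn7* (0.913), for *Atp1b3* *1110008L16Rik* (0.901), *Ugdh* (0.880) and *Hmox2* (0.875), and for *Aqp8*, with most values at 0, *Hsd3b1* (0.868), *Mgst1* (0.850) and *Tfpi2* (0.839). Among the 6 genes themselves, *Aqp11* and *Atp1b3* were most alike (0.886), and *Aqp3* and *Atp1b1* most opposed (-0.781). Groups of 1 stage or 1 experiment are not independent points, so these correlations are a description.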

How the data were processed

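RNA-seq of mouse embryos (Smart-seq2, without strand) was compared by siRNA group, injection and stage. The deposited values are FPKM, made by the authors with TopHat on mm9 and Cufflinks on refFlat genes. They hold no counts, so absolute depth is unknown and gives no interval. Of 113 samples, the 92 with FPKM were used and 21 of other assays were not. Samples were grouped by their titles.

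Log2-transformed values, with a pseudocount of 1 added to the FPKM, were tested in R 4.3.3 using limma 3.58.1, each experiment having its own fit. Fold changes on this scale understate those of low genes. Genes with a mean of at least 1 FPKM in at least 1 group entered, with trended eBayes and Benjamini-Hochberg adjustment over all genes tested. A call is an adjusted p under 0.05. BE + sgRNA was compared with the mean of BE and sgRNA. The fitting code was tested on simulated data for 2 of the comparisons.

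The 6 genes, the pathway and marker lists and the 19 comparisons were chosen with earlier results of these data known. Log2 changes are given for members with an unadjusted p under 0.05, and other pathway genes are named only at an adjusted p under 0.05, up to 5 per comparison by size of change. One item that this rule would name is not reported here.

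In the 3KD experiment libraries with the same replicate number deviated together (correlation 0.28 to 0.51 in 10 pairs of groups), so counts of calls with a block are given there. The changes, SE and adjusted p of single genes in that experiment are from the fit without the block. Alternatives were a pseudocount of 0.1, no filter or 5 FPKM, median-ratio scaling, rescaling to a common sum, eBayes without trend, the limits of the study's methods (adjusted p under 0.01 and a log2 change of 2), only the groups compared, a replicate block, each siRNA library left out, and for single embryos each control alone, the run of library numbers, and libraries that stand apart. The crossed block and the joint omission of libraries were added after seeing the data.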

Additional observations from a re-analysis of the deposited data

Results flagged for a closer look

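In the 8C sgRNA embryos, 1 of the 8 *Aqp3* values stood far from the others: replicate 2 had 183 FPKM, and the next highest embryo 85.4, a gap of 0.55 of the range of the group. It was the only such value among 22 combinations of gene and group of 4 to 10 libraries tested. The rule's chance rate of about 1 in 20 was not checked for these values. The gap was taken on FPKM, not on the log2(FPKM + 1) scale of the tests.

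*Aqp3* lay on opposite sides of NC with *Nr5a2* siRNA at the 2 stages, without passing the test at either (limma, also not at an unadjusted p under 0.05): at 2C the KD mean was 3.78 FPKM against 1.43 in NC, with both KD libraries above both NC libraries (27.3% of all genes), and at 8C it was 30.0 FPKM against 78.1, with both below (33.1% of all genes). In edited embryos at 2C it lay lower than in the controls (-1.10). The difference was not tested, since the experiments are separate and used 20 and 5 µM of siRNA.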

How the results depend on the processing

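The number of the 6 genes called per comparison held, or moved only slightly, in 264 of 266 alternative settings over the 19 comparisons. In every comparison but that of 2C with 8C control embryos this number was 0 at the start, which a stricter setting could not lower. The loss of 1 of 4 calls was counted as slight, as for *Atp1b3* between 2C and 8C among BE4 libraries. Leaving out each siRNA library in turn gave counts from 0 to 0 in all 15 siRNA comparisons. The first exception was the replicate block in 8C *Nr5a2* KD against the other single KDs, which called 1 gene, *Aqp11* (1.70, adjusted p = 0.0457), in place of 0. Correlations of deviations between same-numbered libraries ran from -0.040 to 0.14 there, so the numbers did not pair the libraries. The block changed no other count of the 6 genes. Over all genes it moved the calls from 8 to 1 in *Nr2c2* KD and from 16 to 0 in edited 8C embryos. The other exception was the limits of the study's methods, under which 2 genes in place of 4 (*Aqp3* and *Aqp11*) were called between 2C and 8C, against 19% of all genes. In the 4KD experiment the deviations correlated at about 0.34 within a stage and from -0.30 to -0.27 across stages, and a crossed block, added after seeing the data, called 0 of the 5 genes in each comparison. Of the changes named with an adjusted p, 0 reversed. The 8C *Aqp3* change in 4KD embryos ran from -3.31 to -0.78 over its alternatives (adjusted p from 0.154 to 0.941), and the 8C *Aqp11* change in edited embryos from 0.55 to 1.73 (adjusted p from 0.0886 to 1.00). The libraries of the 4KD experiment were among those of low relative depth, at 4C (0.369 to 0.747) and at 8C (0.406 to 0.616). This limits low values such as those of *Aqp8* and *Atp1b1*, and of *Aqp3* in 8C 4KD embryos.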
